A study of Homo sapiens with 6 samples.

Results

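The chromatin around TMPRSS2 was followed in 22Rv1 cells by ATAC-seq, in which a transposase cuts and tags open DNA so that open stretches appear as peaks of sequenced fragments. The members were all merged peak regions overlapping 21:42780000-42960000 in hg19, a window of 180 kb on chromosome 21, and they numbered 16 of the 167726 regions of the whole series. TMPRSS2 lies at 21:42836478-42880085 on the minus strand, so its start is at 42880085 and sites upstream of it have higher coordinates. All 6 libraries carry the label FOXA1_dTAG, the name for a FOXA1 fusion that an added small molecule marks for destruction, and fall into 3 groups of 2 sampled at 0 h, 1 h and 24 h. The question is how open chromatin at this gene compares early and late in that time course. The cells grew in medium with fetal bovine serum, and no library of untagged cells was used here. The labels give neither the degrading molecule nor its dose, and they do not say whether replicates came from separate cultures or how many clones of the line were used. The spread between replicates may therefore be technical. FOXA1 itself and gene expression were not measured in these files, so the cell type was not checked against marker genes.

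TMPRSS2 encodes a transmembrane serine protease of luminal prostate epithelium, and its transcription is switched on by androgen through the androgen receptor. The receptor acts at this gene through an enhancer upstream of the start, where FOXA1, a forkhead pioneer factor able to bind closed chromatin, is known to bind alongside it. Prostate tumours often fuse the TMPRSS2 control region to ERG, but 22Rv1, an established prostate cancer cell line that makes both full-length and truncated androgen receptor, does not carry that fusion. The next protein-coding gene on the side of the TMPRSS2 end is MX1, an interferon-induced antiviral GTPase, and on the upstream side it is RIPK4, a kinase of epithelial differentiation. This order of genes was read from RefSeq on GRCh38.p14, and exons or introns in hg19 were not assigned. The hg19 positions of MX1 and RIPK4 were not determined either. Sites beyond the gene end may therefore lie within MX1 or at its start. They are placed here only by their distance from TMPRSS2.

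The value followed for each region was the authors' fold, the ratio of the tag pileup at a peak's summit to its local background. Because a fold belongs to its own list, it was also divided by the library's median fold over the 72695 regions with a peak in all 6 libraries, which gives the scaled fold. A scaled fold of 1 is the level of a typical shared region. Relative depth was estimated from each peak list, as its most frequent background pileup divided by its shortest peak width. Reads were not counted. The estimate was 7.04 to 10.4 tags per kb and was lowest at 24 h. The lowest pileup called as a peak over each library's usual background was 5 to 7 tags, and a higher local background demands more. The absence of a peak thus places a site below about that level only where its background is usual. It does not show closed chromatin. With 2 libraries per time, an exact two-sided permutation test between times cannot give a p below 0.333, so groups were compared by whether their libraries overlapped.

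Of the 16 regions, 4 lay beyond the gene end, 7 wholly or partly within the gene including the promoter region, and 5 upstream. A peak was present in all 6 libraries at 10 of them (62.5%), compared with 43.3% of all merged regions. The window held 16 regions where the median of 15731 tiles of the same length with any region was 10 (quartiles 6 and 15). In number of peaks, the window had 14 and 14 at 0 h, 11 and 14 after 1 h, and 13 and 14 after 24 h. These totals hide changes of membership. Of the 13 regions with a peak in both 0 h libraries, 10 had one in both 1 h libraries and 10 in both 24 h libraries, and the 24 h totals include a site with no peak at 0 h. A region that held 2 peaks in a library counts as 2 in that library's total.

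**Figure D1:**
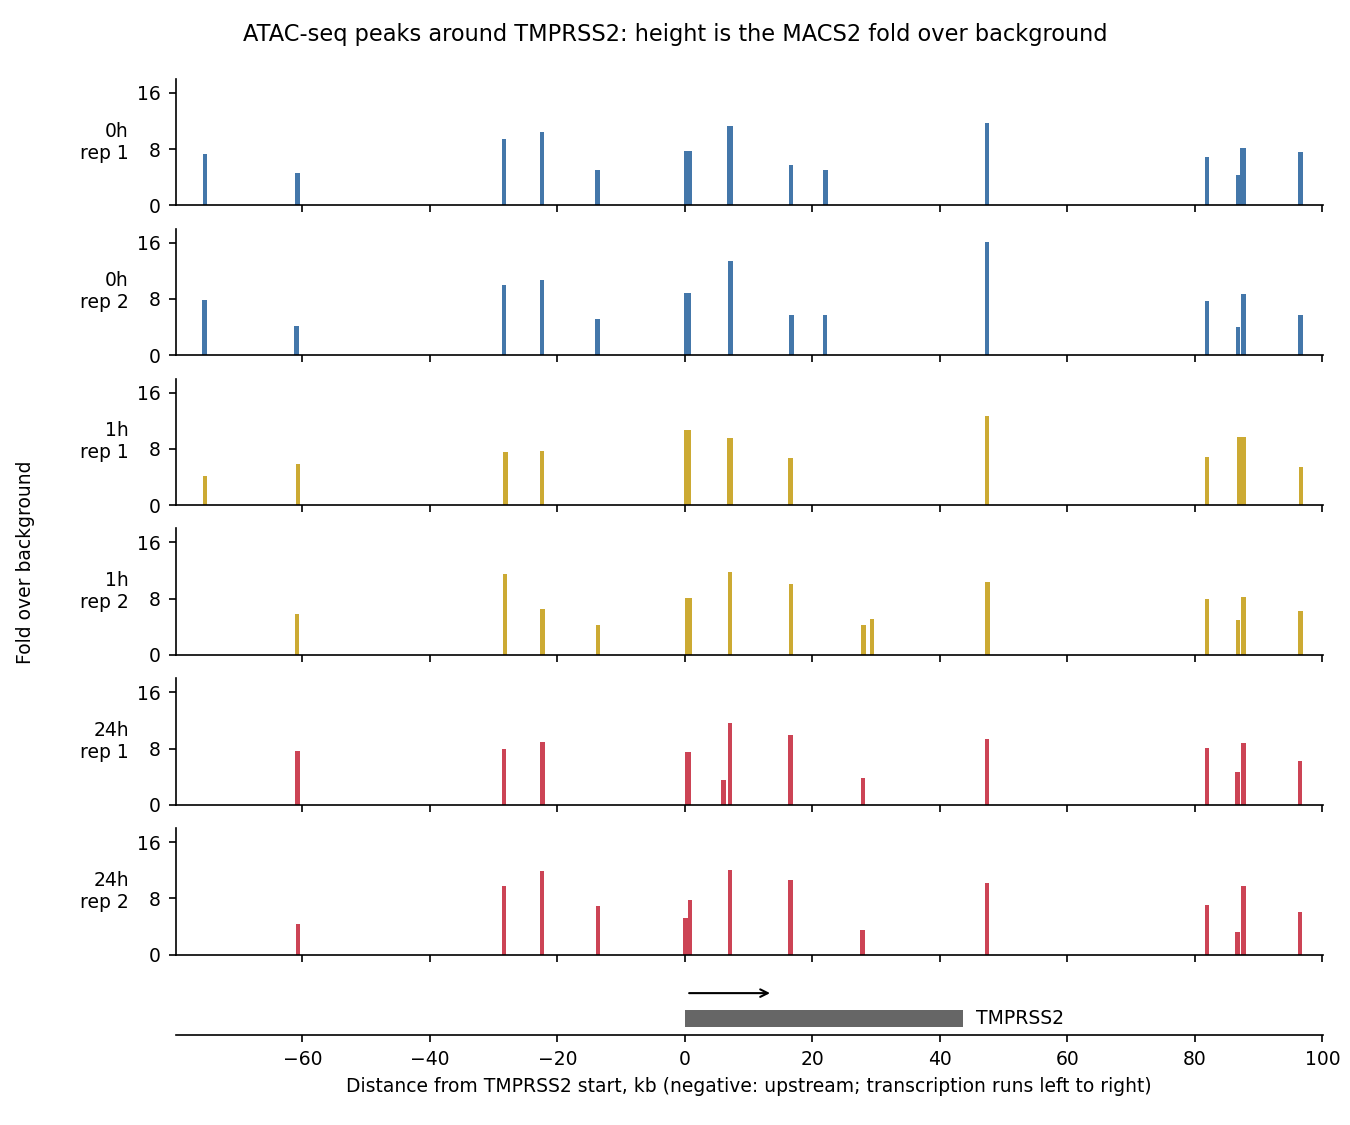
Peaks in each library along the TMPRSS2 window, with the distance from the gene start in kb on the horizontal axis and the deposited fold over background on the vertical axis; bars narrower than 0.7 kb are drawn at that width. The bar beside the gene end is the highest at 0 h, with folds of 11.6 and 16.1, and the bar farthest upstream is missing in both 24 h libraries.

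The promoter region, 21:42878921-42880195, covered the start and the first part of the gene and had a peak in every library. Its folds were 7.66 and 8.81 at 0 h, 10.7 and 8.09 after 1 h, and 7.45 and 7.75 after 24 h. On the scaled fold, the values were 0.956 and 0.993 at 0 h, 1.38 and 1.01 after 1 h, and 0.923 and 0.949 after 24 h. Both 1 h libraries thus lay above both 0 h libraries, and one of them only just. The mean scaled fold was 1.19 ± 0.26 at 1 h and 0.974 ± 0.026 at 0 h (SD, n = 2 each), a log2 ratio of 0.29 that shrank to 0.05 without 1 h replicate 1 and was 0.50 without replicate 2. Against 1 h, the 24 h libraries were lower without overlap, with a log2 ratio of -0.35 (-0.10 without 1 h replicate 1, -0.56 without replicate 2). That call held on all 4 scales tried, which were the scaled fold, the deposited fold, the percentile within the list and the scaled pileup. Against 0 h, the 24 h libraries were lower by only 0.06 on the log2 scale of the scaled fold, and they overlapped the 0 h libraries on the other 3 scales.

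The position of the called summit within that region differed between 0 h and 24 h. The summit lay 133 and 48 bp inside the gene from its start at 0 h, 111 and 689 bp after 1 h, and 702 and 737 bp after 24 h. At 24 h both libraries thus had their summit at an inner position, which 1 of the 1 h libraries shared, and at 0 h neither did. In 24 h replicate 2 the region was split into 2 peaks, and the outer one, with its summit 43 bp inside the gene, had a fold of 5.26 against 7.75 for the inner one. Their pileups were 18 and 27 tags. The exact 95% Poisson intervals for such counts, 10.7 to 28.4 and 17.8 to 39.3 tags, overlap. Whether counting error shifted the summit between these points was not tested. On average the summit lay 629 bp farther into the gene at 24 h than at 0 h, and 586.5 to 671.5 bp farther with any 1 of these libraries left out. Of the 15266 regions of 1 kb or more with a peak in all 6 libraries, 1.41% had summits at 24 h and 0 h that lay at least 500 bp apart in 1 direction. That limit was chosen after the promoter values had been seen, and 1 of the 2 regions of that length in the window passed it. The total width of the promoter peaks was 1181 and 1089 bp at 0 h, 960 and 1230 bp after 1 h, and 1045 and 993 bp after 24 h. A peak list keeps 1 summit per peak, so the heights of the outer and inner points within a single peak were not compared.

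**Figure D2:**
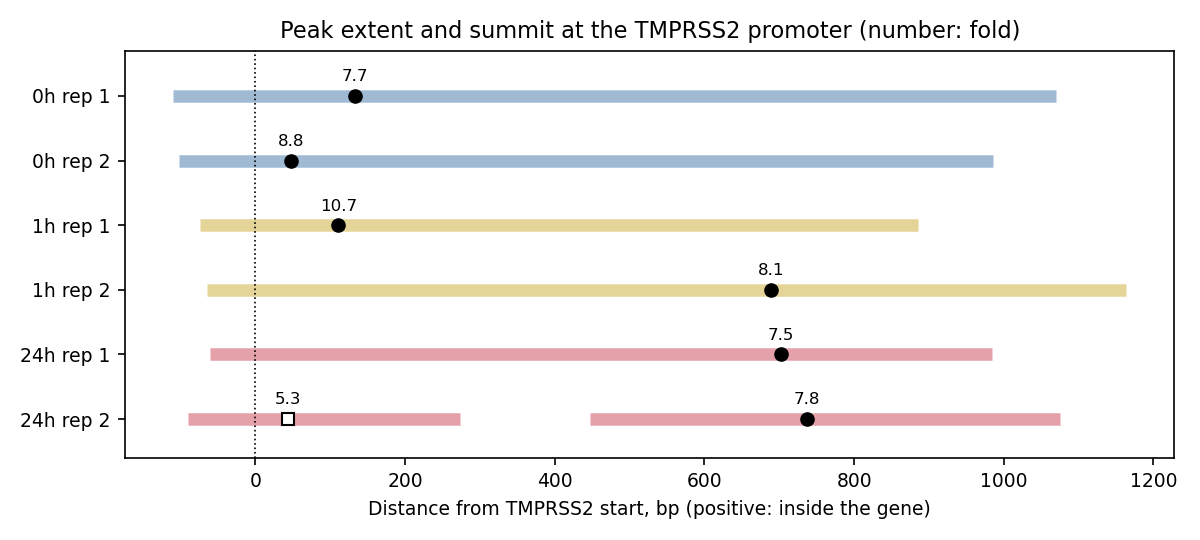
Extent of the promoter peaks (bars) and their summits in each library, with the distance from the TMPRSS2 start in bp on the horizontal axis and libraries as rows; filled circles mark the highest peak, the open square a second peak, and the numbers are folds. Summits of the highest peak lie 702 to 737 bp inside the gene at 24 h and 48 to 133 bp inside at 0 h.

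Upstream of the gene, the site in the interval of the known androgen-responsive enhancer was weaker than the next 2 sites farther out. This region, 21:42893626-42893909, lies 13.7 kb upstream of the start and had a peak in 4 of 6 libraries, with widths of 161 to 199 bp. Its folds were 5.00 and 5.20 at 0 h. At 1 h the fold was 4.20 in replicate 2 with no peak in replicate 1, and at 24 h it was 6.93 in replicate 2 with no peak in replicate 1. The pileups were 13 and 9 tags at 0 h, 9 tags in the 1 h library and 13 tags in the 24 h library. The exact 95% Poisson intervals, which cover counting error only, ran from 4.12 to 22.2 tags over these 4 values. Presence at 1 h and 24 h thus differed between replicates. The −log10 q was 6.07 and 5.16 at 0 h, 3.76 in 1 h replicate 2 and 8.93 in 24 h replicate 2. With a limit of 5 on that value, the site counts as lost at 1 h but not at 24 h. With so few tags the counting intervals overlapped, and no difference between times was established.

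At 0 h this site ranked at the 34.5 and 31.2 percentiles of fold within its lists, while the next site upstream, 22.3 kb from the start, ranked at 83.0 and 79.8. That next region, 21:42902021-42902799, had folds of 10.4 and 10.7 at 0 h, 7.67 and 6.49 after 1 h, and 8.94 and 11.9 after 24 h. Both 1 h libraries lay below both 0 h libraries and both 24 h libraries. The mean scaled fold was 0.896 ± 0.13 at 1 h, against 1.25 ± 0.069 at 0 h (SD, n = 2 each), a log2 ratio of -0.48. At 24 h the mean was 1.28 ± 0.24 (SD, n = 2), which is 0.51 above 1 h on the log2 scale and overlaps 0 h; without 24 h replicate 2 it was 0.30 above 1 h. These 1 h calls held on all 4 scales. Among all regions with a peak in the same 4 libraries, 6.56% had a log2 ratio as low at 1 h against 0 h, and 3.67% had one as high at 24 h against 1 h. These shares are for any single region. In these comparisons this site was the lowest and the highest of the 10 window regions tested. The pileups were 39 and 29 tags at 0 h, 25 and 19 tags after 1 h, and 22 and 32 tags after 24 h, and their counting intervals overlapped.

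The element at 21:42907888-42908725 lies 28.2 kb upstream of the start and showed no shift beyond its spread. Its folds were 9.37 and 10.0 at 0 h, 7.58 and 11.6 after 1 h, and 7.91 and 9.74 after 24 h, so the libraries of the times overlapped in every comparison. The region 60.7 kb upstream, 21:42940482-42941148, was weak, with folds of 4.58 and 4.18 at 0 h, 5.83 and 5.89 after 1 h, and 7.70 and 4.43 after 24 h. It was higher at 1 h than at 0 h on all 4 scales, with a log2 ratio of 0.51 on the scaled fold. Its pileups, however, were only 13 and 13 tags at 1 h, against 11 and 7 tags at 0 h. The 24 h libraries overlapped those of 0 h on the scaled fold, the deposited fold and the percentile. On the scaled pileup they were higher, at 0.625 and 0.348 against 0.344 and 0.280, the second only just.

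The region farthest upstream, 21:42955229-42955559, was the strongest site in the window to lose its peak. It lies 75.3 kb from the start and had folds of 7.25 and 7.83 at 0 h, 4.17 in 1 h replicate 1, and no peak in 1 h replicate 2 or in either 24 h library. The −log10 q was 3.71 in the 1 h library, against 11.5 and 10.7 in the 0 h libraries. The pileup was 18 and 14 tags at 0 h and 9 tags in that 1 h library, against a lowest called pileup of 6 and 5 tags in the 24 h libraries. Of the 54131 regions with a −log10 q of at least 10 in both 0 h libraries, 4.02% had no peak in either 24 h library. In the window 8 regions met that condition at 0 h and 1, this one, had lost its peak by 24 h.

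**Figure D3:**
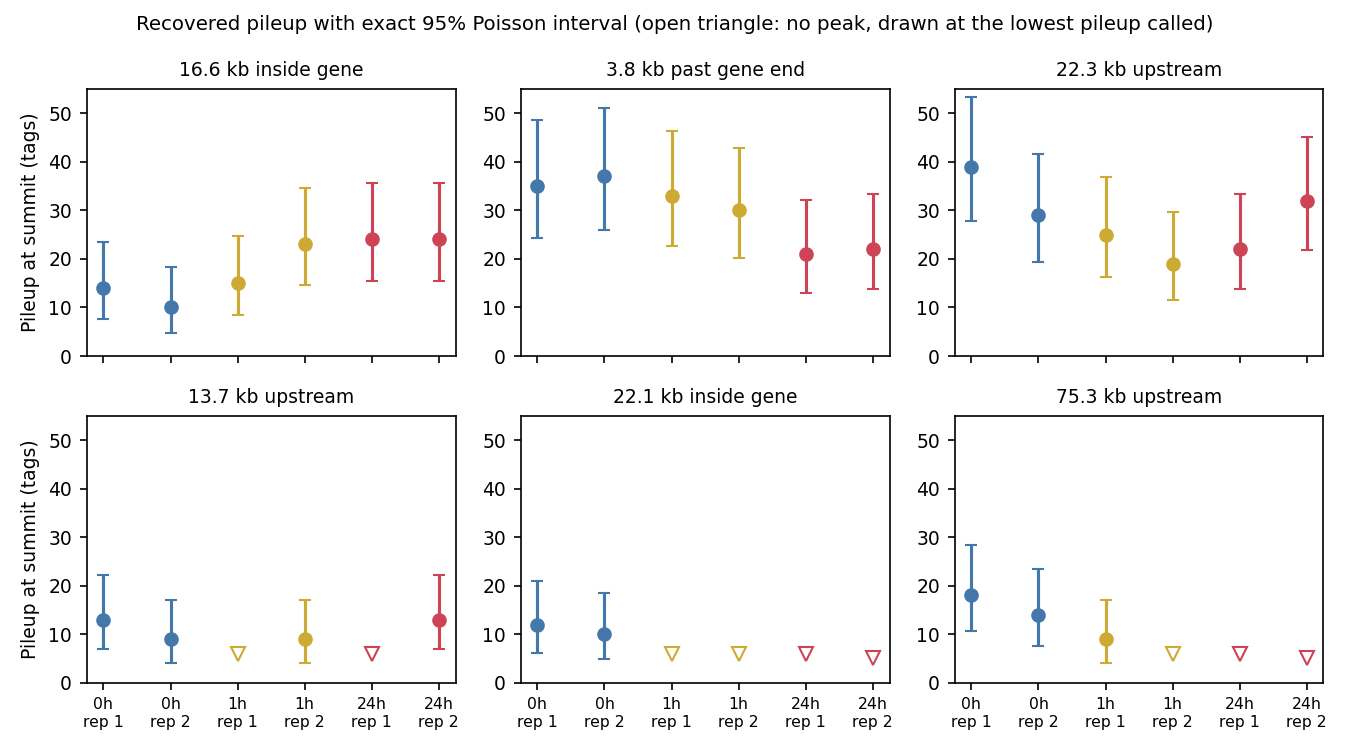
Tag pileup at the summit of 6 regions, recovered from the deposited fold and −log10 p, in each library (points), with exact 95% Poisson intervals for counting error; an open triangle marks a library with no peak, drawn at the lowest pileup called over its usual background. The pileup 16.6 kb inside the gene is 24 in both 24 h libraries, and the farthest upstream site has none called at 24 h.

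Inside the gene the strongest element was 21:42872510-42873502, which lies 7.08 kb into the gene from its start. Its folds were 11.2 and 13.4 at 0 h, 9.54 and 11.8 after 1 h, and 11.7 and 12.1 after 24 h, and its summits lay within 14 bp of each other in the 6 libraries. The libraries overlapped in fold in each comparison, and the log2 ratio of the scaled fold was 0.01 at 24 h against 0 h and -0.11 at 1 h against 0 h. In width, the libraries of 24 h and 0 h did not overlap. The peak was narrower at 24 h, at 650 and 633 bp against 909 and 819 bp at 0 h, a log2 ratio of -0.43. The share of all regions whose widths separate in this way was not computed. After division by the library's median width the 24 h values were 1.46 and 1.41, against 1.72 and 1.89 at 0 h, a log2 ratio of -0.33. The 1 h widths of 952 and 661 bp differed more between replicates than the 0 h widths did. Both 24 h libraries had the lowest estimated depth, so time and depth cannot be told apart for this width. The part of depth in the narrowing was not tested. With pileups of 50 to 72 tags it was also among the best measured sites of the window.

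Of the 10 regions with a peak in all libraries, the one with the largest log2 ratio against 0 h lies 16.6 kb into the gene, at 21:42863195-42863754. Its folds were 5.73 and 5.74 at 0 h, 6.67 and 10.1 after 1 h, and 10.0 and 10.6 after 24 h. On the scaled fold the means were 0.681 ± 0.048 at 0 h, 1.06 ± 0.28 at 1 h and 1.27 ± 0.041 at 24 h (SD, n = 2 each). Both later times lay above 0 h without overlap on all 4 scales, with log2 ratios of 0.90 at 24 h and 0.63 at 1 h. The ratio at 1 h was 0.33 without 1 h replicate 2, while that at 24 h moved by less than 1.5 times with any library left out. Of all regions with a peak in the same 4 libraries, 1.46% had a log2 ratio as high at 24 h against 0 h and 1.61% at 1 h against 0 h. These shares are for any single region, and this site was picked as the largest of 10. Its peak was also wider, at 521 and 468 bp in the 24 h libraries against 250 and 378 bp in those of 0 h, and the order was the same after division by the library's median width. How many of all regions separate in width like this was not computed. The pileups were 24 and 24 tags at 24 h and 14 and 10 tags at 0 h. Their 95% counting intervals, 15.4 to 35.7 tags for each 24 h library and 7.65 to 23.5 and 4.80 to 18.4 tags for the 0 h libraries, overlapped.

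The other sites within the gene were weak. The region 21:42857861-42858209, which lies 22.05 kb into the gene, had folds of 4.96 and 5.74 at 0 h and no peak in any 1 h or 24 h library. Its 0 h pileups were 12 and 10 tags. The region 21:42851888-42852313, which lies 27.98 kb into the gene, had the opposite pattern, with no peak at 0 h, a fold of 4.20 in 1 h replicate 2 and folds of 3.85 and 3.58 at 24 h. Its pileups of 9, 7 and 6 tags stood close to the lowest that were called. Peaks in a single library were seen 29.4 kb into the gene in 1 h replicate 2 (fold 5.04) and 6.06 kb into the gene in 24 h replicate 1 (fold 3.47).

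Beyond the gene end, on the side of MX1, the strongest element lay 3.80 kb from the end at 21:42832374-42832987. Its folds were 11.6 and 16.1 at 0 h, 12.7 and 10.4 after 1 h, and 9.41 and 10.2 after 24 h. The 24 h libraries lay below both the 0 h and the 1 h libraries on all 4 scales. The mean scaled fold was 1.21 ± 0.06 at 24 h, against 1.64 ± 0.26 at 0 h (SD, n = 2 each), a log2 ratio of -0.44, and 8.65% of all regions in the same 4 libraries had one as low. That share is for any single region, and this ratio was the lowest of the 10 window regions tested. Without 0 h replicate 2 the ratio was -0.27. Against 1 h it was -0.28, and -0.10 without 1 h replicate 1 or -0.43 without replicate 2. The peak was narrower, at 266 and 401 bp in the 24 h libraries against 463 and 538 bp in those of 0 h, but widths divided by the library median overlapped (0.599 and 0.893 against 0.877 and 1.24). The pileups were 21 and 22 tags at 24 h and 35 and 37 tags at 0 h, and their counting intervals overlapped. The pileup divided by its library median was 0.875 and 0.957 at 24 h, against 1.09 and 1.48 at 0 h. By the estimate from the peak lists, both 24 h libraries were also the shallowest, so time and depth cannot be told apart here. The part of depth in this difference was not tested.

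The 3 remaining sites on that side moved little in fold. The broadest, 21:42792004-42793611, had folds of 8.09 and 8.71 at 0 h, 9.74 and 8.31 after 1 h, and 8.80 and 9.75 after 24 h. Its scaled fold was higher than at 0 h by 0.20 on the log2 scale at both 1 h and 24 h, but the scaled pileup overlapped in both comparisons. Leaving out a 1 h library gave 0.05 or 0.33 at 1 h, and without 24 h replicate 2 the value was 0.13 at 24 h. The summed width of its 2 peaks was 1240 and 962 bp at 24 h against 1390 and 1257 bp at 0 h, but summed widths divided by the library median overlapped. The region 21:42797941-42798410 had scaled folds of 0.862 and 0.862 at 0 h, 0.886 and 0.981 after 1 h, and 1.00 and 0.865 after 24 h, so both later times were higher by small margins. On the other 3 scales they overlapped 0 h, and leaving out single later libraries gave log2 ratios of 0.04 to 0.19 at 1 h and 0.01 to 0.22 at 24 h. The region 21:42783154-42783908 had folds of 7.64 and 5.74 at 0 h, 5.42 and 6.31 after 1 h, and 6.26 and 6.13 after 24 h, and the times overlapped in every comparison.

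**Figure D4:**
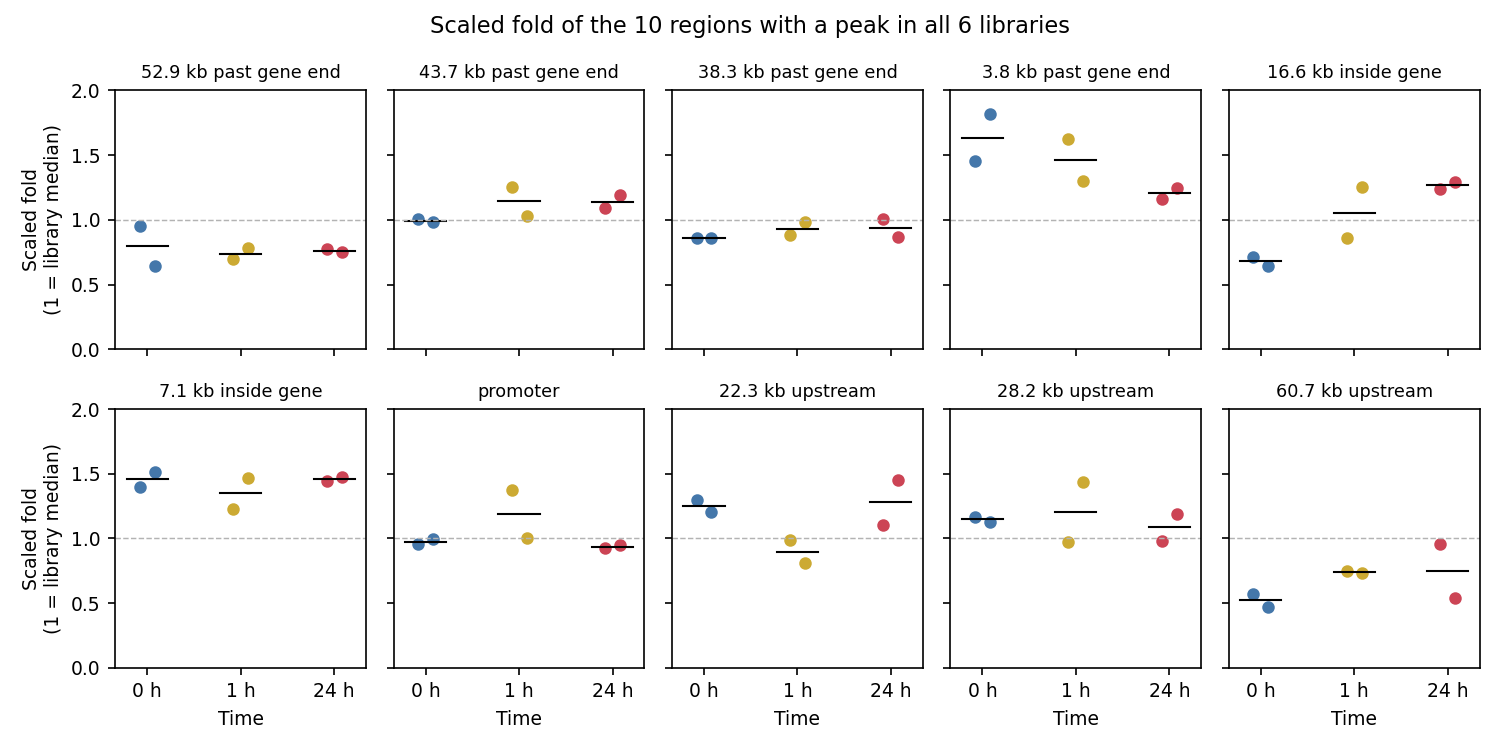
Scaled fold (vertical axis; 1 is the library median over regions shared by all 6 libraries) of the 10 regions with a peak in all 6 libraries at 0 h, 1 h and 24 h (horizontal axis); points are libraries and bars the mean of 2. The site 16.6 kb inside the gene has values of 1.24 and 1.30 at 24 h, against 0.714 and 0.647 at 0 h.

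Counted over the window, 1 h against 0 h gave 1 region that lost its peak (4.43% of all merged regions did so, or 7.48% of those in both 0 h libraries) and 0 that gained one (2.21% of all, or 3.93% of those in both 1 h libraries). The lost region was 1 of 13 in the window with a peak in both 0 h libraries. Of the 10 regions with a peak in all 4 libraries, 1 was lower in scaled fold without overlap (21.1% of such regions genome-wide) and 5 were higher (22.8%). The count of higher regions depended on the scale, with 2 on the deposited fold, 4 on the percentile and 3 on the scaled pileup. Shares over all regions were not computed on those scales. The sites 16.6 kb inside the gene and 60.7 kb upstream were the ones higher on all 4 scales. The median log2 ratio was 0.09 in the window and 0.01 over all 83375 regions tested.

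At 24 h against 0 h, 2 of the 13 regions in both 0 h libraries had lost their peak (13.1% of such regions, 7.76% of all), and 1 of the 11 in both 24 h libraries had gained one (6.54% of such regions, 3.40% of all). Scaled fold was lower without overlap in 2 of 10 regions (20.7% genome-wide) and higher in 3 (27.4%). The lower ones were the element beside the gene end and the promoter region, and the higher ones were the site 16.6 kb inside the gene and 2 sites beyond the gene end. On the deposited fold, the percentile and the scaled pileup, 1 region was lower, the element beside the gene end. The median log2 ratio was 0.02 in the window and 0.02 over all 75341 regions.

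At 24 h against 1 h, no region in the window lost or gained a peak by this definition. None of the 10 regions in both 1 h libraries was lost, where 6.42% of such regions were (3.61% of all), and none of the 11 in both 24 h libraries was gained, where 3.85% were (2.00% of all). Scaled fold was lower in 2 of 10 regions (20.2% genome-wide), the promoter region and the element beside the gene end, and higher in 1 (24.3%), the site 22.3 kb upstream, which the site 16.6 kb inside the gene joined on the scaled pileup. The comparisons with 0 h share the same 0 h libraries, and so their results for a region are not independent. Set against the time course of the site 13.7 kb upstream, whose 1 h and 24 h values rest on 1 library each, the closest profiles among the 10 shared regions were those of the sites 7.08 kb inside the gene (distance 0.49), 38.3 kb (0.50) and 43.7 kb (0.50) beyond its end. The distance is Euclidean over the time means of log2 scaled fold relative to 0 h. The sites 22.3 kb upstream and 21:42783154-42783908 followed at 0.54 each. The site 13.7 kb upstream moved by -0.21 at 1 h and 0.49 at 24 h, and the closest one by -0.12 and 0.01. The order therefore shows no particular likeness.

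**Figure D5:**
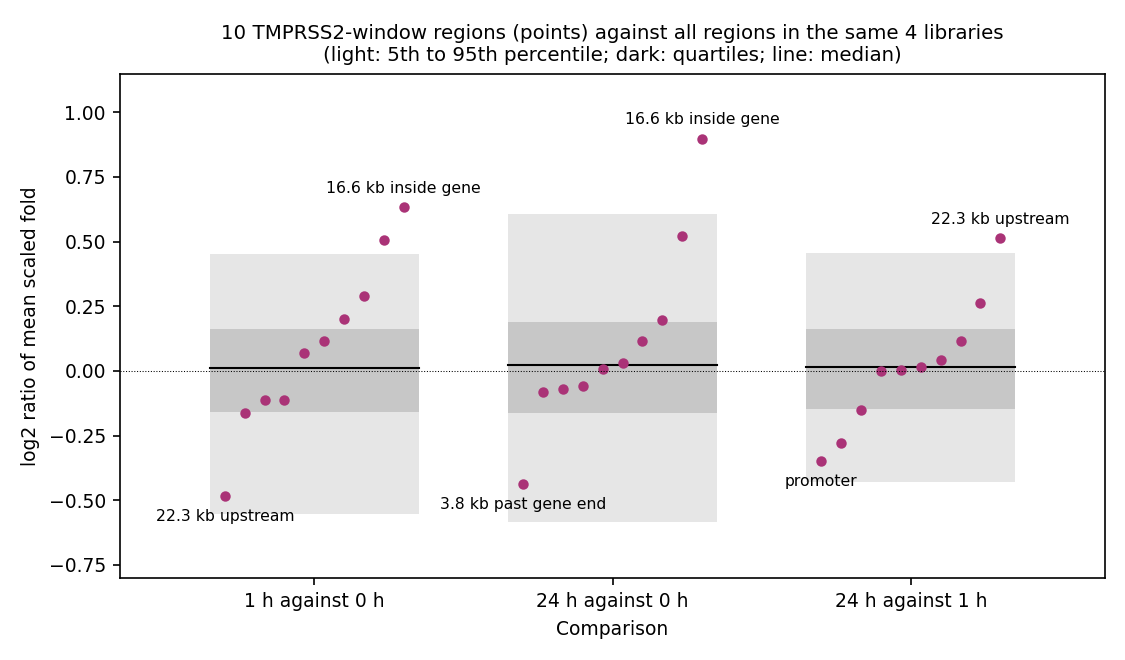
Log2 ratio of the mean scaled fold (vertical axis) for the 10 window regions (points) in each comparison (horizontal axis), over the 5th to 95th percentile (light), quartiles (dark) and median (line) of all regions with a peak in the same 4 libraries. The site 16.6 kb inside the gene is the highest point against 0 h at both times, at 0.63 and 0.90.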

How the data were processed

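The submitters' processing notes name Bowtie2, FastQC, fastp and MACS2 and the build hg19, but the sources used here do not give versions, parameters, or how transposase offsets and duplicates were handled. The authors deposited 1 peak list per library, without pooling. Each peak has a deposited fold (a ratio of pileup to background), −log10 p, −log10 q and score (10 times −log10 q, cut to a whole number). Autosomal and X peaks that shared at least 1 bp were merged, and the highest fold in a region was its level. With MACS2's formulas taken as pseudocount 1 and a Poisson p, every peak's fold gave a whole pileup whose −log10 p was within 0.001 of that deposited; intervals at 95% cover counting error only and ignore that a summit is the highest point. Lost means a peak in both earlier libraries and neither later one, and gained the reverse. Calculations used Python 3.11.15, numpy 2.4.6, pandas 2.3.3 and scipy 1.17.1. The code for the calls was checked on simulated lists with planted fold changes larger than any in this window. That check does not show how well the calls do on changes of the size seen here. By construction, 2 libraries against 2 call a share of about 0.333 of unchanged regions lower or higher. Same-numbered libraries were not paired. Each of the 16 regions was to be described, and values in every library were required for sites within 1 kb of the start, 10 to 20 kb upstream, the 3 highest per class and strong lost or gained sites. The members and lists were chosen with earlier results of these data known. Motifs were not searched.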

Additional observations from a re-analysis of the deposited data

Results flagged for a closer look

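At the promoter region, the 2 later times lay on opposite sides of 0 h in every library. The log2 ratio of the scaled fold was 0.29 at 1 h against 0 h and -0.06 at 24 h against 0 h. The difference between these 2 effects was not tested, and on the deposited fold neither separates from 0 h.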

How the results depend on the processing

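Counts in the window are small, so single regions moved them, and where no construction is named the cause was not tested. The share of all regions called was not computed under these settings. The counts below therefore show only how far the calls on the members depend on the processing. With a −log10 q of at least 5, 1 h against 0 h gave 3 lost and 1 gained region, and 24 h against 0 h gave 0 gained. The 3 lost included the site 13.7 kb upstream. With at least 10, 24 h against 0 h gave 1 lost, and 1 region was higher against 0 h at 1 h and 1 at 24 h. Lists of one length gave 2 lost at 1 h and 0 gained at 24 h against 0 h. Summit windows of 500 bp gave 2 gained and 1 lower at 24 h against 0 h, and 1 lower against 1 h. Requiring 50% of a region to be covered left fewer to test: 0 were lost and 2 higher at 1 h against 0 h, 1 lost, 0 gained, 1 lower and 1 higher at 24 h against 0 h, and 1 lower and 0 higher at 24 h against 1 h. The unscaled fold gave 2 higher at 1 h and 1 lower at 24 h against 0 h, and the percentile 1 lower at 24 h. The scaled pileup, whose count was added after seeing the data, gave 3 higher at 1 h and 1 lower at 24 h against 0 h, and 2 higher at 24 h against 1 h; it also turned the region 21:42797941-42798410 to -0.021 (log2) at 1 h against 0 h. With number-matched libraries (replicate block) 2 were lower at 1 h against 0 h and 3 higher at 24 h against 1 h, and no other count moved by over 1.5 times; same-numbered libraries hardly deviated together (r of 0.042, 0.043 and 0.014 over 72695 regions). Leaving out 1 library gave, for 1 h against 0 h, 1 to 2 lost, 0 to 2 gained, 2 to 4 lower and 5 to 6 higher; for 24 h against 0 h, 2 to 3 lost, 1 to 2 gained, 2 to 4 lower and 4 to 6 higher; and for 24 h against 1 h, 0 to 1 lost, 0 to 1 gained, 2 to 5 lower and 2 to 5 higher. A condition on fewer libraries is easier to meet. Pileups of 6 to 72 tags limit all single sites.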

Other observations

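In 0 h replicate 2, 3 regions of the window had the same fold of 5.74 and the same pileup of 10 tags over a background of 0.915, namely those 16.6 and 22.05 kb inside the gene and 21:42783154-42783908. In 0 h replicate 1 the same regions, in that order, had 14, 12 and 19 tags and folds of 5.73, 4.96 and 7.64, so their equal level held in 1 of the 0 h libraries. At such pileups 1 tag is a visible step of the fold. At 24 h the first had 24 tags in both libraries, the second no peak in either and the last 12 and 11 tags.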
